A study of Mus musculus with 12 samples.

Results

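Interleukin 6 family signalling and the acute phase were described through 10 genes, Il6, Lif, Osmr, Il6st, Stat3, Socs3, Saa3, Lcn2, Serpina3n and Hp, of the 19938 genes measured. The 10 genes were chosen from the measured values: Il6, Lcn2 and Serpina3n were among the largest decreases in CD47 null endothelial cells, so their differences from the wild-type cells are descriptions with no p-value. Which other comparisons guided the choice is not recorded, so p-values of the 10 genes may be too small elsewhere too. RNA was hybridised to 12 mouse whole-transcript arrays, 3 in each of 4 groups. WT_EC were wild-type lung endothelial cells of strain C57Bl/6, and null_EC were lung endothelial cells of the same strain without CD47, a cell surface receptor for thrombospondin-1 and SIRP alpha. Both were grown in the endothelial medium EGM2. The null_EB group held embryoid bodies that formed from CD47 null lung endothelial cells, kept in culture for 6 months, within 24 to 36 hours of seeding in basal medium without serum. ESC was V6.5, an established mouse embryonic stem cell line with no CD47 deletion stated, in DMEM with 1000 IU/ml LIF and 15% serum. The ESC group thus had one member of the family, the LIF protein, in its medium. Genotype, passage and medium changed together between several groups and cannot be told apart. The labels do not say whether the 3 samples of a group came from separate cultures or animals, so p-values measure only the spread between these samples, which may be technical.

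Cytokines of the interleukin 6 family signal through a shared receptor chain, gp130, encoded by Il6st. Interleukin 6 reaches gp130 through its own receptor chain, LIF through the LIF receptor, and oncostatin M through the oncostatin M receptor encoded by Osmr. The activated chains recruit Janus kinases, which phosphorylate the transcription factor STAT3. STAT3 then switches on genes including Socs3, whose product blocks gp130 in a feedback loop. In liver and in inflamed tissue the same pathway, together with NF-kB and C/EBP factors, drives acute phase genes such as Saa3 (a serum amyloid A), Lcn2 (lipocalin 2, which binds bacterial siderophores), Serpina3n (a serine protease inhibitor) and Hp (haptoglobin, which binds free haemoglobin). In mouse embryonic stem cells LIF and STAT3 maintain the undifferentiated state.

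The sequences before the start sites of 5 of these genes are shown because their signals moved most, or, for Socs3, because it is the feedback gene of the pathway. Each is the 250 bases before the start listed for that gene from RefSeq annotation of build GRCm38.p6, which held 9 of the 10 genes. The listed start is not always the outer end of the annotated gene. The Saa3 and Socs3 stretches lie inside the gene spans (46711998-46719615 and 117966079-117970336). That of Serpina3n runs past the first base of its span (104406646). Positions in these 3 genes thus count from a start inside the span. Hp had no entry. Letters in capitals match one of 4 patterns searched on both strands: for NF-kB GGG, any 2 bases and TTTCC, and TTCNNNGAA for STAT, TTNNGCAA for C/EBP and TGANTCA for AP-1.
Il6 (chr5:30012864-30013113, plus strand): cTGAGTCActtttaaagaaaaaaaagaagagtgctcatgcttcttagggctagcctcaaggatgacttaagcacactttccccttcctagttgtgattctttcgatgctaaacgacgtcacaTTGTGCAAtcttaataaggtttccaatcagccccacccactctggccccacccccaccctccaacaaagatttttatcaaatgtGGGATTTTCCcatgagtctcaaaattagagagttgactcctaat
Saa3 (chr7:46715677-46715926, minus strand): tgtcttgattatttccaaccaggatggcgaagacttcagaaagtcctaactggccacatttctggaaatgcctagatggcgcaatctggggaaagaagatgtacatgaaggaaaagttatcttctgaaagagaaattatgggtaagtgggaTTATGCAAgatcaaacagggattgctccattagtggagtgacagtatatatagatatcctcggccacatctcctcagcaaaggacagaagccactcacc
Lcn2 (chr2:32387740-32387989, minus strand): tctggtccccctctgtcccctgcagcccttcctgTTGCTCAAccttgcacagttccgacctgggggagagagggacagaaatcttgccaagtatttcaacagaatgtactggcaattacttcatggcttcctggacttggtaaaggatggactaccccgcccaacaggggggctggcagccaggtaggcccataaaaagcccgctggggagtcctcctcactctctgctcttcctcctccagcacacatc
Serpina3n (chr12:104406458-104406707, plus strand): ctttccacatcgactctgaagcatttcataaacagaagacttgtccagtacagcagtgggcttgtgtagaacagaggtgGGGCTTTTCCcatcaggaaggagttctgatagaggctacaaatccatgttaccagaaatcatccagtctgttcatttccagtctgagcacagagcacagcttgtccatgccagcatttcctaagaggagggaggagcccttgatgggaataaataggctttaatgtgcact
Socs3 (chr11:117969367-117969616, minus strand): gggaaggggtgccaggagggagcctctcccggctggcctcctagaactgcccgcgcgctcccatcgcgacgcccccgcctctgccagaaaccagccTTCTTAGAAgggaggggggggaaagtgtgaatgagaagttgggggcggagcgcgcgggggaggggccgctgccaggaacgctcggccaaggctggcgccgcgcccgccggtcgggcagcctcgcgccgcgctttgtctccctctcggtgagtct

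The Il6 sequence held an NF-kB pattern from 44 bases before the start, a C/EBP pattern at 128 and an AP-1 pattern at 249. Serpina3n held an NF-kB pattern at 171, Saa3 a C/EBP pattern at 99 and Lcn2 a C/EBP pattern on the opposite strand at 216. Socs3 held a STAT pattern at 154. Among the 4 genes not printed, Lif had an AP-1 pattern at 228 and Osmr, Il6st and Stat3 had no match. None of these matches overlapped another pattern. Over the 32851 RefSeq sequences of this length, 1.41% held the NF-kB pattern, 7.02% the STAT pattern, 9.56% the C/EBP pattern and 6.75% the AP-1 pattern. The pattern letters were chosen with these sequences in view, and a match is a description of letters, not of binding.

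Values are log2 signals, so a difference of 1 is a doubling. Signals of different genes were not compared, because probe sets bind differently. The median of all gene values was 8.01. The threshold for a call was an adjusted p of 0.05 in a limma fit to all 12 arrays. Array medians lay between 7.66 and 7.75, but the WT_EC arrays differed more among themselves than any other group: a gene's median SD was 0.0652 to 0.0847 in the other groups and about 0.213 in WT_EC. The fit pools this error, so its p-values tend to be too small in comparisons with WT_EC and too large in the others. For the others a fit without the WT_EC arrays, added after the data had been seen, is given beside them where it changes a call. Cd47, the targeted gene, was at 12.59, 11.29 and 12.48 on the WT_EC arrays, 10.97 to 11.11 in null_EC, 10.89 to 10.99 in null_EB and 10.96 to 11.33 in ESC. The difference of null_EC from WT_EC was -1.09 (SE 0.27, adjusted p = 0.0228), but the call was lost without WT_EC 1 (0.0504), without WT_EC 3 (0.0584) and without any null_EC array (0.0607 to 0.0858). Which part of the gene was deleted is not given in the sources used here, so this signal may come from outside it. In bulk RNA, fewer cells of a type and less RNA per cell cannot be told apart.

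**Figure D1:**
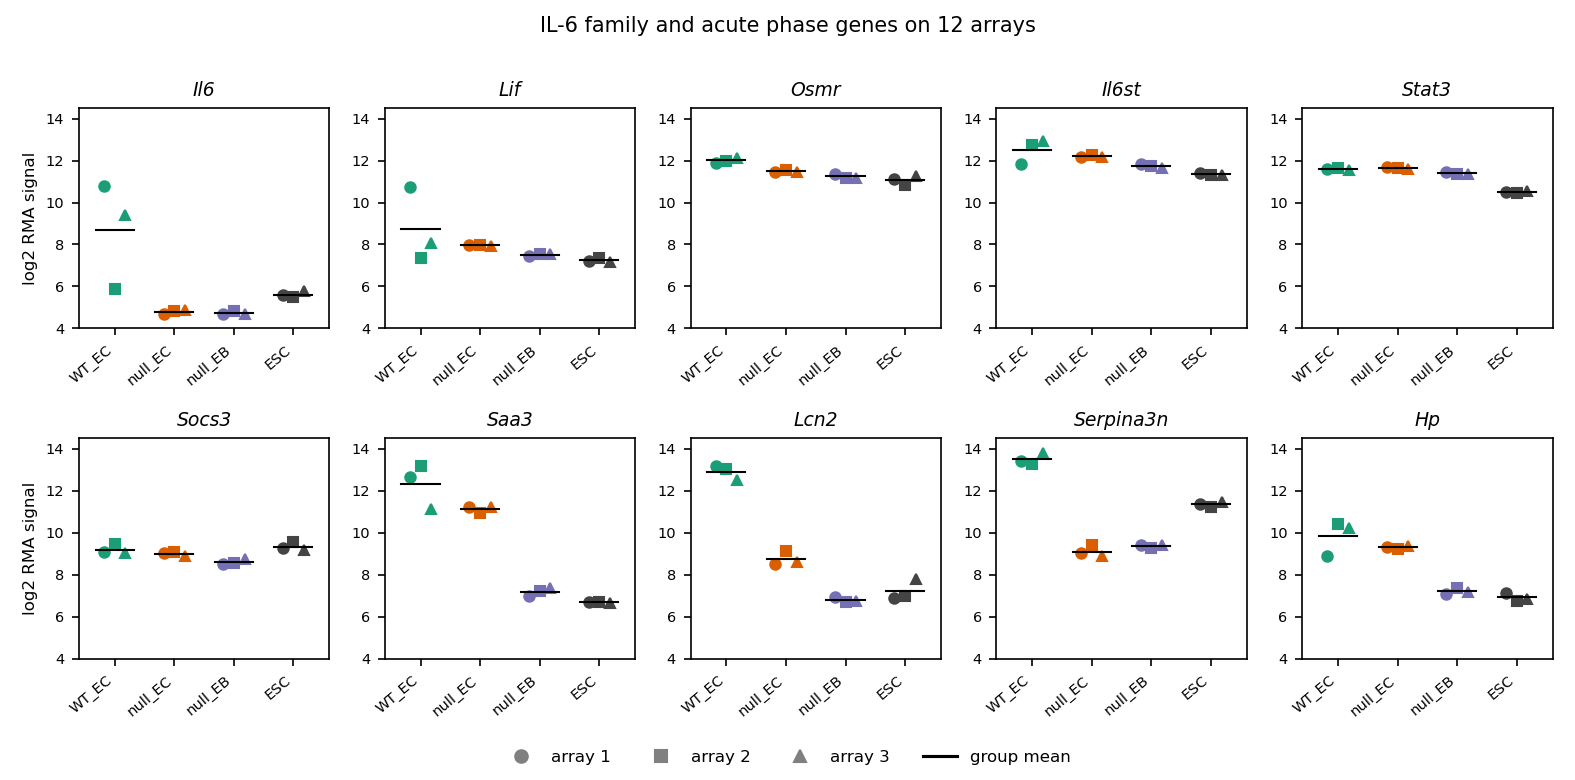
Log2 signal of each of the 10 genes (vertical axes) on every array, by group along the horizontal axis, with points for arrays and bars for group means. WT_EC had the highest mean for 8 of the 10 genes, against 22.4% of all genes. Il6, Lcn2 and Serpina3n among the 8 were chosen for high WT_EC values, so nothing is read from that count. Il6 spread from 5.89 to 10.79 within WT_EC.

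The ligand Il6, an inflammatory cytokine, was at 10.79, 5.89 and 9.40 on the WT_EC arrays. It was at 4.71, 4.81 and 4.86 in null_EC, at 4.69, 4.82 and 4.70 in null_EB and at 5.58, 5.49 and 5.77 in ESC. Every WT_EC array lay above every other array, but WT_EC 2 stood close to the ESC arrays. Compared with WT_EC (8.69 ± 2.53, SD, n = 3), the mean in null_EC (4.79 ± 0.075) was 14.9-fold lower. No detection call was used here, so the null_EC signal is not shown to be above background, and this fold of signals may understate the difference. That log2 difference was -3.90, and it was -3.55 without WT_EC 3, -2.85 without WT_EC 1 and -5.30 without WT_EC 2. Between null_EB and null_EC it was -0.06 (SE 0.89, adjusted p = 0.993). The ESC arrays lay above all null_EC and null_EB arrays, by 0.82 over null_EC (adjusted p = 0.475, and 5.1e-07 without the WT_EC arrays) and by 0.88 over null_EB (adjusted p = 0.453, and 2.8e-07 without them). Leaving out WT_EC 2 alone also brought both calls. All these ESC and null values were below the median of all gene values.

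Lif, the ligand that was also supplied in the ESC medium, was at 10.76, 7.35 and 8.08 on the WT_EC arrays, so that WT_EC 1 alone stood apart. It was at 8.0, 7.99 and 7.94 in null_EC, at 7.47, 7.55 and 7.54 in null_EB and at 7.22, 7.37 and 7.14 in ESC. WT_EC overlapped every other group, and no comparison with it was called (adjusted p = 0.521, 0.233 and 0.0776 for null_EC, null_EB and ESC). The difference of null_EC from WT_EC, -0.75, was 0.26 without WT_EC 1 (adjusted p = 0.32) and -1.44 without WT_EC 2 (0.0792). Calls appeared in other comparisons when single WT_EC arrays were left out: Lif was lower in null_EB (0.0233) and ESC (0.00688) without WT_EC 2, and lower in ESC (0.0374) without WT_EC 1. The 3 groups without wild-type endothelial cells did not overlap each other. Without the WT_EC arrays the fall from null_EC to null_EB, -0.45 (adjusted p = 0.850 with them), had an adjusted p of 0.000215, and the lower value of ESC than null_EC, -0.73 (adjusted p = 0.367 with them), had 3.4e-07. The difference of ESC from null_EB, -0.28 (0.747 with them), had 0.00235. The drop from null_EC to ESC also passed without WT_EC 1 alone (0.00166).

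Of the receptor genes, Osmr, the oncostatin M receptor chain, was at 11.90, 11.99 and 12.11 in WT_EC, 11.47, 11.55 and 11.45 in null_EC, 11.36, 11.19 and 11.19 in null_EB and 11.11, 10.82 and 11.27 in ESC. The WT_EC arrays lay above all others and the null_EB and ESC arrays overlapped. Osmr was 1.43-fold lower in null_EC against WT_EC (-0.52, SE 0.11, adjusted p = 0.0106), a call that held in each alternative run. It was also lower than WT_EC in null_EB (-0.76, adjusted p = 0.00102) and ESC (-0.94, adjusted p = 3.46e-05), and lower in ESC than in null_EC (-0.42, adjusted p = 0.00815). The step from null_EC to null_EB, -0.24, was not called (adjusted p = 0.285), though those groups did not overlap.

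Il6st, which encodes gp130, was at 11.82, 12.73 and 12.93 in WT_EC, 12.19, 12.26 and 12.17 in null_EC, 11.84, 11.72 and 11.65 in null_EB and 11.40, 11.33 and 11.32 in ESC. WT_EC 1, where Il6 and Lif were highest, had the lowest gp130 signal of its group, below all null_EC arrays. The difference of null_EC from WT_EC, -0.29 (SE 0.22), was not called (adjusted p = 0.456). It was -0.63 without WT_EC 1 (adjusted p = 0.000516), -0.17 without WT_EC 2 (0.646) and -0.07 without WT_EC 3 (0.856). The null_EC, null_EB and ESC groups did not overlap, in falling order. ESC was called below WT_EC (-1.15, adjusted p = 0.00127) and null_EC (-0.85, adjusted p = 0.00765). The step from null_EC to null_EB (-0.47) had an adjusted p of 0.311 in all 12 arrays, 0.00234 without WT_EC 1 and 0.00014 without the 3 WT_EC arrays. That of ESC from null_EB (-0.39) had 0.176, 0.00102 and 0.000127 in these fits. The lower value of null_EB against WT_EC (-0.76, adjusted p = 0.0355) was lost without any array other than WT_EC 1, with adjusted p between 0.0528 and 0.112.

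Stat3, the transcription factor itself, overlapped between the endothelial groups, at 11.62, 11.64 and 11.55 in WT_EC and 11.70, 11.63 and 11.61 in null_EC (log2 difference 0.04, SE 0.065, adjusted p = 0.755). It was at 11.46, 11.36 and 11.35 in null_EB and at 10.49, 10.43 and 10.53 in ESC, below every other array. ESC was called lower than WT_EC (-1.12, adjusted p = 1.6e-07), null_EC (-1.16, adjusted p = 8.98e-08) and null_EB (-0.90, adjusted p = 7.6e-07), a fold of 1.87 to 2.23. The smaller value in null_EB than in null_EC (-0.26, adjusted p = 0.0456) was lost without any null_EC, null_EB or ESC array (0.0605 to 0.187). When arrays were shifted to equal medians of 12 housekeeping genes it was -0.03 (adjusted p = 0.841). That of null_EB against WT_EC (-0.21, adjusted p = 0.0418) was likewise lost, without WT_EC 2, null_EB 2, null_EB 3 or any null_EC or ESC array (0.0516 to 0.144).

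Socs3, the feedback inhibitor and a direct STAT3 target, had its highest mean in ESC. It was at 9.25, 9.54 and 9.19 there, against 9.06, 9.46 and 9.05 in WT_EC, 9.05, 9.08 and 8.90 in null_EC and 8.53, 8.56 and 8.74 in null_EB. ESC lay above both null groups without overlap and overlapped WT_EC. Socs3 was lower in null_EB than in WT_EC (-0.58, SE 0.13, adjusted p = 0.0107) and higher in ESC than in null_EB (0.72, 1.64-fold, adjusted p = 0.000835). The step from null_EC to null_EB (-0.40) had an adjusted p of 0.115, 0.0299 without WT_EC 2 and 0.00654 without the 3 WT_EC arrays. Against null_EC the ESC value was 0.32 higher (adjusted p = 0.0633, and 0.00886 without the WT_EC arrays). Socs3 was the only one of the 10 genes with a further probe set, which had a mean of 7.20 against 9.03. On that probe set ESC lay below null_EB (-0.16, adjusted p = 0.308), so the direction depends on the probe set. The differences of ESC from WT_EC and null_EC also turned there, to -0.18 and -0.22. The uncalled difference of null_EC from WT_EC turned too, where the main probe set had means of 9.01 in null_EC and 9.19 in WT_EC. The further probe set was at 7.46, 7.13 and 7.12 in WT_EC and at 7.11, 7.39 and 7.34 in null_EC. The difference of null_EB from WT_EC was -0.01 on it (adjusted p = 0.961). With arrays shifted to equal housekeeping medians the ESC difference from null_EB was 0.41 and no longer called (adjusted p = 0.0715). The call of null_EB against WT_EC was also lost under that shift (adjusted p = 0.104) and in a limma fit on those 2 groups alone (0.0812).

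**Figure D2:**
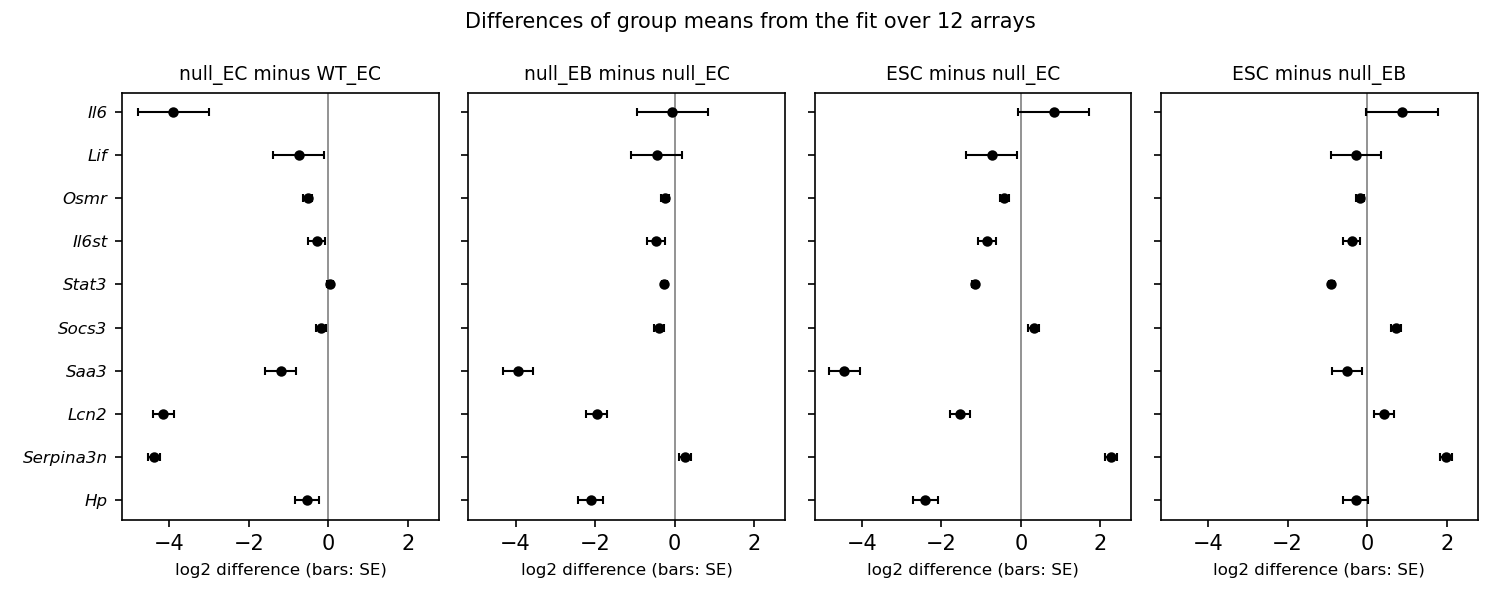
Log2 differences of the 10 genes (horizontal axis, with SE bars from the limma fit) in 4 comparisons. The acute phase genes Saa3, Lcn2 and Hp were lower in null_EB than in null_EC (-3.93, -1.96 and -2.11), and Serpina3n was 2.26 higher in ESC than in null_EC.

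Among the acute phase genes, Saa3, an amyloid A made outside the liver as well as in it, was at 12.66, 13.16 and 11.15 in WT_EC and 11.23, 10.92 and 11.22 in null_EC. WT_EC 3 thus lay inside the null_EC range. Saa3 dropped to 6.99, 7.23 and 7.35 in null_EB and was at 6.72, 6.68 and 6.66 in ESC, below the median of all gene values. The fall from null_EC (11.12 ± 0.18) to null_EB (7.19 ± 0.18) was 15.3-fold, a log2 difference of -3.93 (SE 0.38, adjusted p = 0.000323). ESC was 21.6-fold below null_EC (-4.44, adjusted p = 2.94e-06). The lower value of null_EC than of WT_EC, -1.20 (SE 0.38), missed the threshold (adjusted p = 0.0665) and depended on single arrays. It was -1.79 without WT_EC 3 (adjusted p = 7.35e-05) and -0.78 without WT_EC 2 (0.109). The difference of ESC from null_EB was not called (-0.50, adjusted p = 0.314, and 0.000541 without the WT_EC arrays). The liver-type amyloid genes Saa1 and Saa2, named here after their values were seen, were between 3.68 and 5.18 on all 12 arrays.

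Hp followed a like order. It was at 8.91, 10.43 and 10.22 in WT_EC and at 9.34, 9.24 and 9.36 in null_EC, with WT_EC 1 below the null_EC arrays. It was at 7.06, 7.35 and 7.19 in null_EB and at 7.15, 6.77 and 6.83 in ESC, which overlapped each other. Hp fell 4.32-fold from null_EC to null_EB (-2.11, SE 0.31, adjusted p = 0.00336) and was 5.27-fold lower in ESC than in null_EC (-2.40, adjusted p = 6.77e-05). Between null_EC and WT_EC the difference was -0.54 (adjusted p = 0.309), with -1.01 without WT_EC 1 (adjusted p = 0.000418), -0.25 without WT_EC 2 (0.583) and -0.36 without WT_EC 3 (0.543). The lower value of ESC than null_EB, -0.29 (adjusted p = 0.479), had 0.0225 without the WT_EC arrays.

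Lcn2 fell in steps. It was at 13.16, 13.04 and 12.51 in WT_EC, 8.52, 9.15 and 8.60 in null_EC, 6.96, 6.69 and 6.73 in null_EB and 6.90, 6.97 and 7.80 in ESC. WT_EC lay far above all other arrays, null_EC above null_EB, and ESC overlapped null_EB. Compared with WT_EC (12.90 ± 0.34), the mean in null_EC (8.76 ± 0.34) was 17.7-fold lower. From null_EC to null_EB (6.79 ± 0.15) Lcn2 fell a further 3.90-fold (-1.96, SE 0.26, adjusted p = 0.00174). ESC was 2.90-fold below null_EC (-1.54, adjusted p = 0.000455) and did not pass against null_EB (0.43, adjusted p = 0.202).

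Serpina3n had another order. It was at 13.42, 13.28 and 13.78 in WT_EC and at 9.02, 9.40 and 8.88 in null_EC, 21.0-fold lower in the means (13.49 ± 0.26 and 9.10 ± 0.27). The null_EB arrays, at 9.41, 9.28 and 9.42, overlapped null_EC (0.27, SE 0.15, adjusted p = 0.431). The ESC arrays, at 11.39, 11.23 and 11.46, lay between WT_EC and both null groups with no overlap. Serpina3n was 4.79-fold higher in ESC than in null_EC (2.26, SE 0.15, adjusted p = 3.58e-07) and 3.98-fold higher than in null_EB (1.99, adjusted p = 1.11e-06). Saa3, Lcn2 and Hp were lower in ESC than in null_EC, so the 4 acute phase genes did not share one direction there. The 9 fibroblast markers had medians of 9.52 to 9.61 on the ESC arrays, beside 10.04 to 10.37 in null_EB and 10.32 to 11.13 in null_EC, and the part of other cells in the ESC value was not tested.

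Counted over the 10 genes, 4 passed the threshold in null_EC against WT_EC, all lower, where 13.1% of all genes were called, 8.12% higher and 5% lower. They were Osmr and the 3 genes Il6, Lcn2 and Serpina3n. Those 3 were among the values that chose the genes, so their passing is no test and nothing is read from that count. Il6 also no longer passed on those 2 groups alone or without any null_EC array. In null_EB against null_EC 4 were lower (Stat3, Saa3, Lcn2 and Hp) and 0 higher, where 5.4% of genes were called, 2.9% higher and 2.5% lower. Without the WT_EC arrays 7 were called there, adding Lif, Il6st and Socs3. In null_EB against WT_EC 9 were lower, all but Lif, with 18.5% of genes called, 12.3% higher and 6.19% lower, and the same 3 genes chosen for high WT_EC values are among them. In ESC 8 were lower than WT_EC, with 47.1% of genes called, 25.4% higher and 21.7% lower, and again with those 3 genes. Nothing is read from these counts either. Against null_EC 6 were lower and 1 higher, with 47.9% of genes called, 22.9% higher and 25.1% lower. Without the WT_EC arrays all 10 were called there. Against null_EB 1 was lower, Stat3, and 2 were higher, Serpina3n and Socs3, with 44.8% of genes called, 21.8% higher and 23% lower. Without the WT_EC arrays 8 were called there. The share of all genes called without the WT_EC arrays is not given here, so nothing is read from the counts of 7, 10 and 8. Groups did not overlap for 4 of the 10 genes in null_EC against WT_EC (25.5% of all genes), 8 in null_EB against null_EC (41.1%) and 8 in null_EB against WT_EC (28.3%). In ESC it was 8 against WT_EC (51.5% of all genes), 10 against null_EC (72.2%) and 7 against null_EB (67.4%). Nothing is read from the counts against WT_EC, for the same reason. The median difference of the 10 genes in null_EB against null_EC was -0.43, where all genes had -0.01. Which comparisons chose the 10 genes is not recorded, so nothing is read from the other counts or this median either. The comparisons share arrays, so their counts are not independent of each other.

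Several of the 10 genes differed between the WT_EC arrays themselves. Their range within WT_EC passed 1 for 5 genes, Il6, Lif, Il6st, Saa3 and Hp, against 13.4% of all genes, and for none in the other groups. All 3 WT_EC arrays lay above every other array for 4 genes, Il6, Osmr, Lcn2 and Serpina3n, against 2.6% of all genes, but 3 of these 4 had been chosen for their high WT_EC values and nothing is read from that count. The order of the WT_EC arrays was not the same from gene to gene: Il6, Lif and Lcn2 were highest on WT_EC 1, Saa3 and Hp on WT_EC 2, and Osmr, Il6st and Serpina3n on WT_EC 3.

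Lists of other genes also differed between these arrays. Of all genes, 24.1%, 12.1% and 15.8% lay above every array of the other groups on WT_EC 1, 2 and 3. Any gene highest on one of these arrays is among them. Of 14 NF-kB and cytokine genes, 12 were highest on WT_EC 1, and their median was 10.66, 8.68 and 8.14 on WT_EC 1, 2 and 3 against 6.99 to 7.42 on all other arrays. Named after their values were seen, the neutrophil chemokine Cxcl2 was at 11.61, 6.73 and 7.97 and Cxcl5 at 11.48, 8.38 and 6.30 on these arrays. Of 14 macrophage markers 12 were highest on WT_EC 3, with a median of 7.66, 6.63 and 10.17 on WT_EC 1, 2 and 3 and 6.65 to 6.89 elsewhere. Lyz2, the macrophage lysozyme and also named after its values were seen, was at 9.05, 5.44 and 12.31. On WT_EC 2, where the macrophage median was lowest, Lcn2 was at 13.04, Serpina3n was at 13.28 and Saa3 had its highest signal. The macrophage marker Cd14, named after its values were seen, was at 8.48, 10.20 and 8.73 on WT_EC 1, 2 and 3. Of 9 fibroblast markers 7 were highest on WT_EC 3, with medians of 10.86, 11.94 and 12.05 on WT_EC 1, 2 and 3. The neutrophil markers, 9 genes, had medians of 6.17 to 6.56 over all arrays, and the 5 hepatocyte markers measured 6.15 to 6.46. The 12 endothelial markers had medians of 6.91 to 8.02 in WT_EC and 7.16 to 7.27 in null_EC. Named after their values were seen, the endothelial junction gene Pecam1 was at 6.46 to 7.56 in both groups, and another, Cdh5, was at 9.10, 6.85 and 9.52 on WT_EC 1, 2 and 3 against 7.09 to 7.27 in null_EC. Named the same way, Esam was at 10.34, 6.97 and 9.53 on the WT_EC arrays and at 7.25 to 7.37 in null_EC. The VEGF receptor Kdr was at 8.51, 8.61 and 9.35 on the WT_EC arrays and higher in null_EC, at 10.52 to 10.83. Means of Tek, Robo4 and Egfl7 were also higher in null_EC (6.82, 7.05 and 8.61) than in WT_EC (6.75, 6.82 and 8.45). The median difference of the 12 markers was -0.21. The 8 mesothelial markers had medians of 10.2 to 11.2 in WT_EC, 10.7 to 10.8 in null_EC, 9.76 to 9.98 in null_EB and 7.92 to 8.08 in ESC. Of the 8, 6 were called lower in ESC than in null_EC. Krt8 and Krt18, named after their values were seen, had higher means in ESC (10.04 and 11.34) than in null_EC (8.52 and 7.31). The part of these cell types in the results was not tested.

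**Figure D3:**
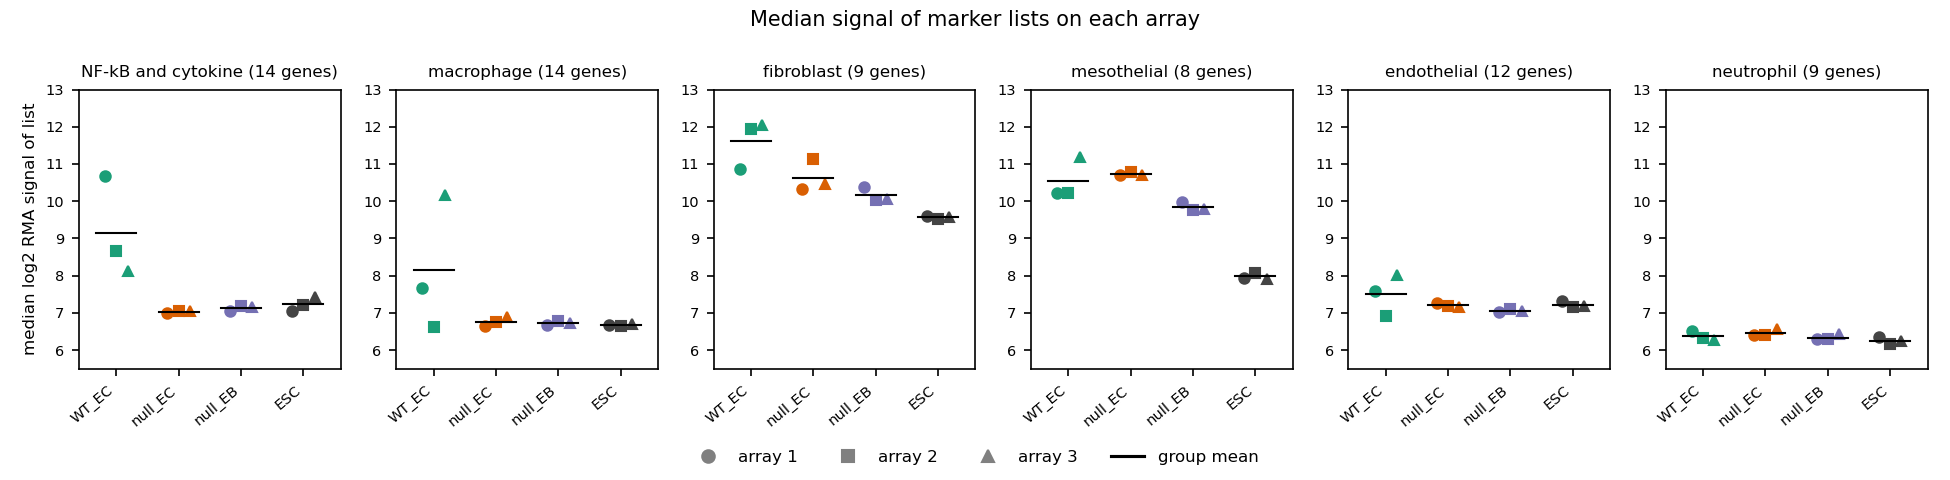
Median log2 signal of 6 gene lists (vertical axis) on each of the 12 arrays (horizontal axis). The NF-kB and cytokine median peaks at 10.66 on WT_EC 1 and the macrophage median at 10.17 on WT_EC 3, while the neutrophil median stays between 6.17 and 6.56.

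The wider pathway was read from 79 measured genes in 8 lists, made with earlier results of these data known. In null_EC against WT_EC 3 of the 79 were higher and 16 lower, 24.1% of them, beside 13.1% of all genes (8.12% higher and 5% lower). None of 5 ligands (Osm, Clcf1 and others; median 0.09) and none of 4 receptor chains (median -0.23) was called. Among 7 kinases and signal carriers Jak1, which phosphorylates gp130, was lower (-0.32, adjusted p = 0.00633), and among 6 feedback genes Socs2 was lower (-1.73, adjusted p = 0.0177). The Socs2 call was lost without any null_EC array (adjusted p near 0.06, between 0.0598 and 0.0602).

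Of 21 acute phase genes beside the 10, 6 were lower in null_EC than in WT_EC and 0 higher. C4b, a complement component, was at 10.16, 10.85 and 10.70 in WT_EC and 8.06 to 8.11 in null_EC (-2.49, adjusted p = 1.91e-05). Cfb, complement factor B, was at 9.46 and 9.38 on WT_EC 2 and WT_EC 3, higher still on WT_EC 1, and at 7.34 to 7.42 in null_EC (-2.22, adjusted p = 8.84e-06). Cp, the copper carrier ceruloplasmin, was at 11.51, 12.81 and 12.41 against 10.58 to 10.65 (-1.62, adjusted p = 0.00293). None of these groups overlapped. The list median was -0.13, against 0.03 for all genes, and the median signal of the list was 6.52 to 6.67 on the WT_EC, null_EC and null_EB arrays. Of 14 STAT3 targets 4 were lower and 1 higher. Steap4, a metalloreductase induced by interleukin 6, led them, at 10.20 to 10.64 in WT_EC and 7.63 to 8.20 in null_EC (-2.61, adjusted p = 6.38e-06). Of the 14 NF-kB and cytokine genes 4 were lower, including the chemokine Cxcl1 (-2.51, adjusted p = 0.00498), the prostaglandin synthase Ptgs2 (-2.09, adjusted p = 0.0106) and the NF-kB inhibitor Nfkbia (-1.25, adjusted p = 0.000642). On the 6 arrays of these groups alone the calls of Jak1 (0.102), Cp (0.0594), Cxcl1 (0.0974) and Ptgs2 (0.138) were lost, and 6 of the 79 genes were called in place of 19. The Jak1 call was also lost with array weights (0.0702).

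In null_EB against null_EC 5 of the 79 genes were higher and 6 lower, 13.9% of them, beside 5.4% of all genes. Ptgs2 rose from 10.19 to 10.41 in null_EC to 12.32 to 12.45 in null_EB (2.07, SE 0.44, adjusted p = 0.0231), inside the WT_EC range of 11.18 to 13.65. That call was lost without any null_EC or null_EB array (0.0646 to 0.0954). Nfkbiz, an NF-kB cofactor known for its role at Il6 and Lcn2, rose from 9.54 to 9.59 to 10.31 to 10.54 (0.85, adjusted p = 0.0015), and the Janus kinase Tyk2 rose by 0.58 (adjusted p = 0.0077). Steap4 rose by 0.81 (adjusted p = 0.0123), a call lost without null_EC 1, null_EC 3 or null_EB 2 (0.0613 to 0.0647). Among the 21 acute phase genes 2 were lower and 0 higher. Cp (-1.39, adjusted p = 0.0149) and Lbp, which hands bacterial lipopolysaccharide to its receptor (-1.35, adjusted p = 0.0256), fell beside Saa3, Lcn2 and Hp. The Cp call was lost without any null_EC array, null_EB 2 or null_EB 3 (0.0582 to 0.0757), and the Lbp call without any null_EC or null_EB array (0.0656 to 0.108). C4b and Cfb did not pass here, with values of 7.94 to 8.11 and 7.08 to 7.32 in null_EB. Without the WT_EC arrays 29 of the 79 genes were called in place of 11. The share of all genes called in that fit is not given here, so nothing is read from the rise.

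**Figure D4:**
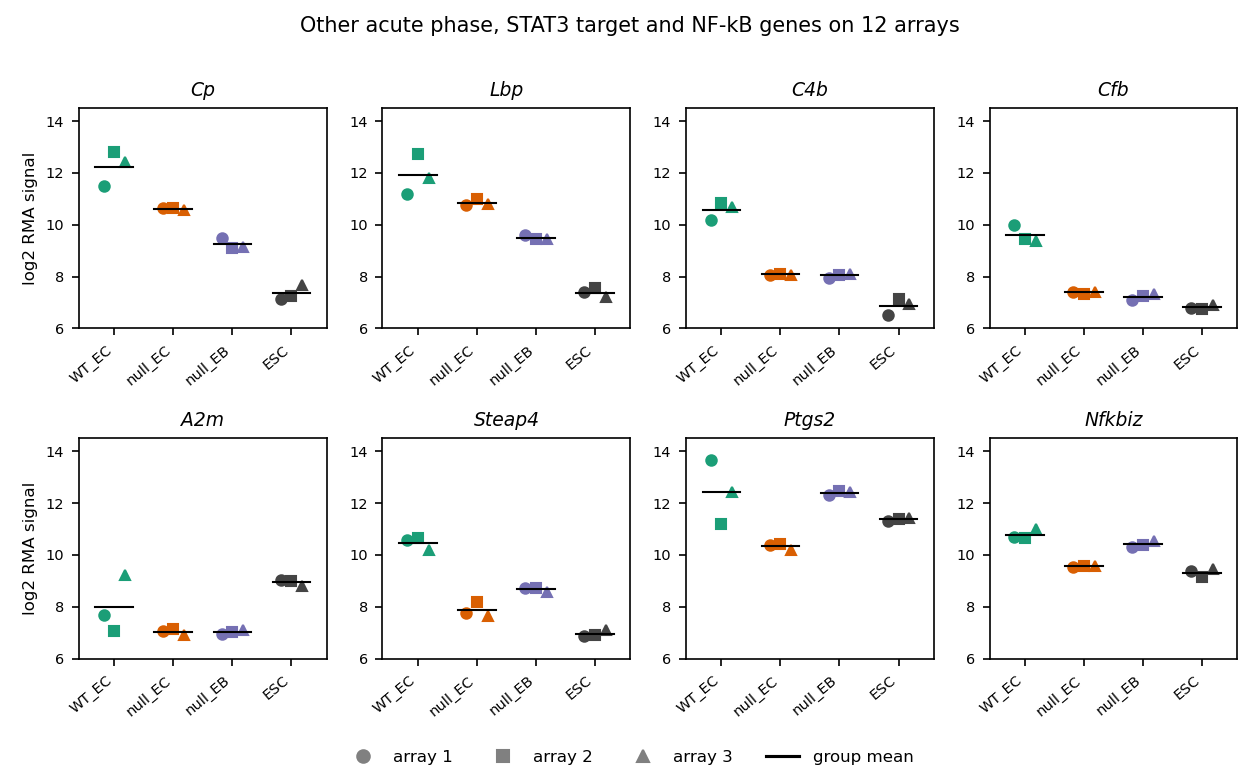
Log2 signal of 8 further acute phase, STAT3 target and NF-kB genes (vertical axes) on every array, by group. C4b, Cfb and Steap4 separate WT_EC from null_EC, while Ptgs2 and Nfkbiz are higher in null_EB (12.32 to 12.45 and 10.31 to 10.54) than in null_EC.

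In null_EB against WT_EC 4 of the 79 genes were higher and 23 lower (34.2% of them, beside 18.5% of all genes), and 6 of the 21 acute phase genes were lower. Cp (-3.01, adjusted p = 7.06e-05), C4b (-2.53, adjusted p = 1.84e-05) and Lbp (-2.41, adjusted p = 0.000434) fell most. The ligand gene Clcf1, a cardiotrophin-like cytokine, was 0.54 higher (adjusted p = 0.00566) and the interleukin 6 receptor chain Il6ra lower (-0.70, adjusted p = 0.0232), a call lost without any null_EB array (0.0644 to 0.0757). Fitted on those 6 arrays alone, 5 of the 10 genes and 8 of the 79 were called.

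In ESC, grown with LIF, Il6ra, Jak1 and Stat3 were lower than in null_EC, while most stem cell genes on the LIF list were higher. The 7 pluripotent markers, which share Esrrb with that list, were all higher too. Cell type and medium changed together here and cannot be told apart. Against null_EC 15 of the 79 genes were higher and 22 lower, 46.8% of them, a share near the 47.9% of all genes and so no result about the pathway. Il6ra was at 7.95, 8.20 and 8.24 in ESC and 9.35 to 9.36 in null_EC (-1.23, adjusted p = 0.000199). Jak1 was lower (-0.83, adjusted p = 7.58e-07), as was Jak2 (-0.80, adjusted p = 0.016), whose call was lost without null_EC 2 (0.0545) or ESC 2 (0.069). Lifr, the LIF receptor chain and named after its values were seen, was at 10.29 to 10.39 in ESC and 9.39 to 9.48 in null_EC. Among feedback genes Socs2 was 5.60-fold higher in ESC (2.49, adjusted p = 0.000394) and the phosphatase gene Ptpn2 2.27-fold higher (1.18, adjusted p = 3.25e-06).

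Of 8 LIF-responsive stem cell genes 6 were higher and 0 lower in ESC than in null_EC (75% of them), where 22.9% of all genes were higher. The nuclear receptor genes Nr0b1 (4.56, adjusted p = 8.08e-11) and Esrrb (3.58, adjusted p = 3.79e-09) were among the 6. Klf4, another of the 8, was at 9.29 to 9.37 in ESC and higher in null_EB, at 10.27 to 10.52 (ESC minus null_EB -1.05, adjusted p = 0.000883). Of 14 STAT3 targets 1 was higher, the survival gene Mcl1 (0.91, adjusted p = 0.000243), and 6 were lower, led by Nnmt, a nicotinamide methyltransferase (-3.59, adjusted p = 1.4e-09). These calls were 50% of the 14, near the 47.9% of all genes and so no result about the targets. Of 21 acute phase genes 9 were lower and 2 higher in ESC than in null_EC, 52.4% of them, also near the 47.9% of all genes. Lbp (-3.47, adjusted p = 2.62e-06) and Cp (-3.27, adjusted p = 2.07e-06) fell, and the protease inhibitor A2m was higher (1.89, adjusted p = 0.00239), at 8.79 to 9.04 against 6.93 to 7.15. Against WT_EC 12 of the 79 genes were higher and 36 lower (60.8%, beside 47.1% of all genes), and against null_EB 17 were higher and 24 lower (51.9%, beside 44.8%).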

How the data were processed

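For each probe set the authors deposited a log2 signal per array, made with Affymetrix Expression Console 1.2.1 and RMA (background correction, quantile normalization and median polish), per the submitters' processing notes. A human array is named in the labelling protocol, but the probe sets are those of the mouse platform table used here. Of 35556 probe sets, 21789 had 1 gene symbol, 1621 several and 12146 none. The brightest probe set by mean over the 12 arrays stood for each of 19938 genes. With limma 3.58.1 in R 4.3.3, 1 model over all arrays gave 6 comparisons between group means, with Benjamini-Hochberg adjustment over all genes. The fit was tested on simulated data. No depth applies to arrays, and their number limits the precision. The 10 genes and all lists were chosen with earlier results of these data known. Named are the 10 genes, Cd47, up to 3 called genes of each pathway list per direction and comparison, and the 3 genes most alike each of the 10. Others are said to be chosen after their values were seen. Sequences came from RefSeq, GRCm38.p6. The alternatives were the replicate block, a filter on dim genes, a housekeeping shift, array weights, an intensity trend, 2 groups alone, the other probe set, each array left out, and no WT_EC arrays.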

Additional observations from a re-analysis of the deposited data

How the results depend on the processing

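In 1164 tests of alternatives, the differences of the 10 genes kept direction and side of the threshold in 1052, turned sign without being called either way in 7, gained a call in 56, lost one in 48 and reversed in 1, that of Socs3 in ESC against null_EB on its other probe set (-0.16). For the other named genes 2221 stayed, 4 turned sign uncalled, 172 lost a call, 3 gained one and 0 reversed. Fitted on 2 groups alone, the pathway calls fell to 6 (from 19) in null_EC against WT_EC and to 8 (from 27) in null_EB against WT_EC, where 5 (from 9) of the 10 genes were called. In null_EB against null_EC 4 of the 10 genes and 11 pathway genes became 8 and 33 with array weights, 8 and 29 on 2 groups alone, and 7 and 29 without the WT_EC arrays. In ESC against null_EB 3 of the 10 genes became 8 under each of these 3 settings and 41 pathway genes became 62 with array weights. In ESC against null_EC 37 became 56 without the WT_EC arrays. For array weights, 2 groups alone and no WT_EC arrays the share of all genes called is not given here. These counts are thus no result about the pathway. Leaving out each array in turn gave 3 to 6, 3 to 5, 7 to 9, 8 to 9, 7 to 9 and 3 to 4 of the 10 genes in null_EC against WT_EC, null_EB against null_EC, null_EB against WT_EC, and ESC against WT_EC, null_EC and null_EB. For pathway genes it gave 13 to 30 (30 without WT_EC 2), 4 to 16, 19 to 38, 42 to 56, 32 to 45 and 36 to 48. With a replicate block the calls were 4, 3, 7, 8, 8 and 3 of the 10 genes and 18, 10, 26, 48, 35 and 39 pathway genes. The share of all genes called with an array left out or with the block is not given here, so nothing is read from these counts. Il6, Lcn2 and Serpina3n, chosen for their WT_EC values, are part of the counts against WT_EC and of the 1164 tests. Same-numbered arrays correlated at -0.256 to 0.225, above 0.1 in 3 of 18 pairs, so the numbers were not taken as pairs. Shifting arrays to equal housekeeping medians moved the differences by -0.18, 0.23, 0.04, -0.26, -0.08 and -0.30 in that order. The share of calls that were higher then went from 61.9% to 15.5% in null_EC against WT_EC, from 53.7% to 89.9% in null_EB against null_EC, from 53.9% to 24.5% in ESC against WT_EC and from 48.6% to 19.7% in ESC against null_EB, so small differences of Osmr, Stat3 and Socs3 depend on the scaling. The signs of Stat3 in null_EC against WT_EC, Il6 in null_EB against null_EC and Socs3 in ESC against WT_EC turned, while the other such turns were those of Lif without WT_EC 1 and of Socs3 on its other probe set. Il6 passed the dim filter on only 2 arrays and was not tested under it. The cause of these changes was not tested.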

Other observations

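The genes whose centred signals over the 12 arrays lay closest to each of the 10, by root mean square difference, are a description with no test. For Il6, whose own signals spread by 1.92 about their mean, they were the protease inhibitor gene Pi15 (0.46), the chemokine Ccl3 (0.49) and the microfibril gene Mfap5 (0.52). The closest to Lif (own spread 0.92) was the chemokine Cxcl3 (0.24), and the closest to Serpina3n (1.78) was the growth factor Fgf7 (0.28). Lcn2 (2.43) was nearest to the B cell chemokine Cxcl13 (0.79). Saa3 (2.48) was nearest to 2 further acute phase genes, Cp (1.11) and Lbp (1.18), and next to Tmem119 (1.21). Tmem119 was also nearest to Hp (1.33), at 0.32. The nearest genes of the receptor and signalling genes were Rsu1 for Osmr (0.10 of 0.37), Pxk for Il6st (0.10 of 0.50), Tm2d2 for Stat3 (0.088 of 0.47) and Dhrs7 for Socs3 (0.15 of 0.30).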
